A study of Mus musculus with 6 samples.

Results

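Interleukins are secreted signalling proteins through which blood and tissue cells act on each other, and each acts through a receptor of 1 or more membrane chains. Most interleukin receptors signal through JAK kinases and STAT transcription factors, whereas the IL-1 and IL-18 receptors use MYD88 and IRAK proteins and the IL-17 receptors use the adaptor ACT1. Haematopoietic stem cells (HSC), which give rise to all blood lineages, carry several of these receptors, and inflammatory interleukins are known to drive them into division. The genes described here were those whose probe sets carried a single platform gene symbol starting with Il and a number, without Il3ra, Il5ra and Il7r. They came to 70 of 18186 genes, on 111 of 44991 probe sets, with 34 ligands, 33 receptor chains and 3 genes that are neither (Il18bp, Il1bos and Il4i1). Where a gene had several probe sets, the one with the highest mean gave its value.

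The values came from flow-sorted HSC of mouse bone marrow. Wildtype (WT) animals were compared with PU.1 knockdown (PU.1 KD) animals, in 3 pools per group, and per the series' text each pool held RNA of 3 animals. PU.1, the product of Spi1, belongs to the ETS transcription factors and is required to form myeloid and B cells. RNA was amplified in 2 rounds and read on mouse whole-genome Affymetrix arrays, 1 per pool. The sources used here do not give the way in which PU.1 was lowered, the markers of the sort or the age of the mice. Levels are log2(intensity + 16) after quantile normalisation, given in the order of pools 1, 2 and 3, and the numbers were not taken as pairs. Differences are PU.1 KD minus WT on that scale with their standard error (SE) from limma, fitted over all probe sets, and n was 3 pools per group throughout.

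The targeted gene, Spi1, read 10.13, 9.42 and 10.08 in the WT pools and 8.73, 8.55 and 7.06 in the PU.1 KD pools. The groups did not overlap, the lowest level was in knockdown pool 3, and the exact two-sided permutation test gave p = 0.1, the smallest that 3 against 3 allows. Stem cell markers were bright, with Kit, Hlf, Meis1 and Procr all above the median of all probe sets, and 6 of 8 measured stem cell markers had a lower mean in PU.1 KD pools, 2 of them (Tek and Mecom) at an unadjusted p under 0.05. Markers of mature cells were also present, and some moved with the groups. Of 5 measured eosinophil markers all had lower means in PU.1 KD pools, 4 of them at an unadjusted p under 0.05, and their summed intensity ran from 1968 to 12597 in WT and from 197 to 1167 in PU.1 KD pools. Of 7 mast cell and basophil markers 6 had higher means, 4 at that p, with sums of 547 to 2825 in WT and 1766 to 3776 in PU.1 KD pools. No marker list was at the floor of the scale throughout.

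After Benjamini-Hochberg adjustment over all probe sets in limma, 0 of the 70 genes passed 0.05, and the share called over all 44991 probe sets was 0%. Means were higher in PU.1 KD pools for 39 of the 70 genes and lower for 31, a split that became 31 higher with the values as deposited, without quantile normalisation. With quantile normalisation the share higher was 55.7%, close to the 53.4% of all genes. At an unadjusted p under 0.05, 8 genes were higher and 3 lower, which is 11.4% and 4.29% of the list, against 4.1% higher and 3.52% lower of all genes. Groups did not overlap for 8 genes with higher and 3 with lower PU.1 KD values, again 11.4% and 4.29%, against 8.42% and 5.39% of all genes. This count rests on the quantile normalisation: with the values as deposited, groups did not overlap for 2 genes with higher (Il12rb1 and Il1r2) and 4 with lower values, against 5.54% and 8.29% of all genes. The median difference of the list was 0.041, turning to -0.03 as deposited, and that of all genes 0.018. As deposited, the median over all probe sets was below 0 as well, at -0.048. The smallest adjusted p of the list in limma was 0.203, for Il12rb1. In bulk RNA of a sorted population, fewer cells that carry a transcript and less of it per cell cannot be told apart.

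Ligands and receptors differed in these counts. Of the 33 receptor chains 8 had a higher mean at an unadjusted p under 0.05 (24.2%) and 1 a lower mean (3.03%), and groups did not overlap for 7 with higher (21.2%) and 1 with lower values. As deposited, these became 2 with higher and 2 with lower values, and the groups of Il17re, Il17rc, Il17rb, Il18rap and Il10ra overlapped. Of the 34 ligands 0 had a higher and 2 a lower mean at that p, and groups did not overlap for 1 with higher and 2 with lower values. The median difference was 0.077 for receptors and 0.0075 for ligands, the latter turning to -0.061 with the values as deposited. The median over all probe sets was -0.048 in that setting. Whether the 2 kinds of gene differ beyond chance was not tested. The receptor count of 8 fell to 2 without WT pool 3, to 4 without PU.1 KD pool 3, to 5 without WT pool 1 and to 3 in an ordinary linear model. Of the 33 receptors 19, and of the 34 ligands 14, had a mean above the median level of all probe sets, which was 6.7. Over all genes, each valued by its brightest probe set, 12009 of 18186 did, a larger share than of receptors or of ligands.

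**Figure D1:**
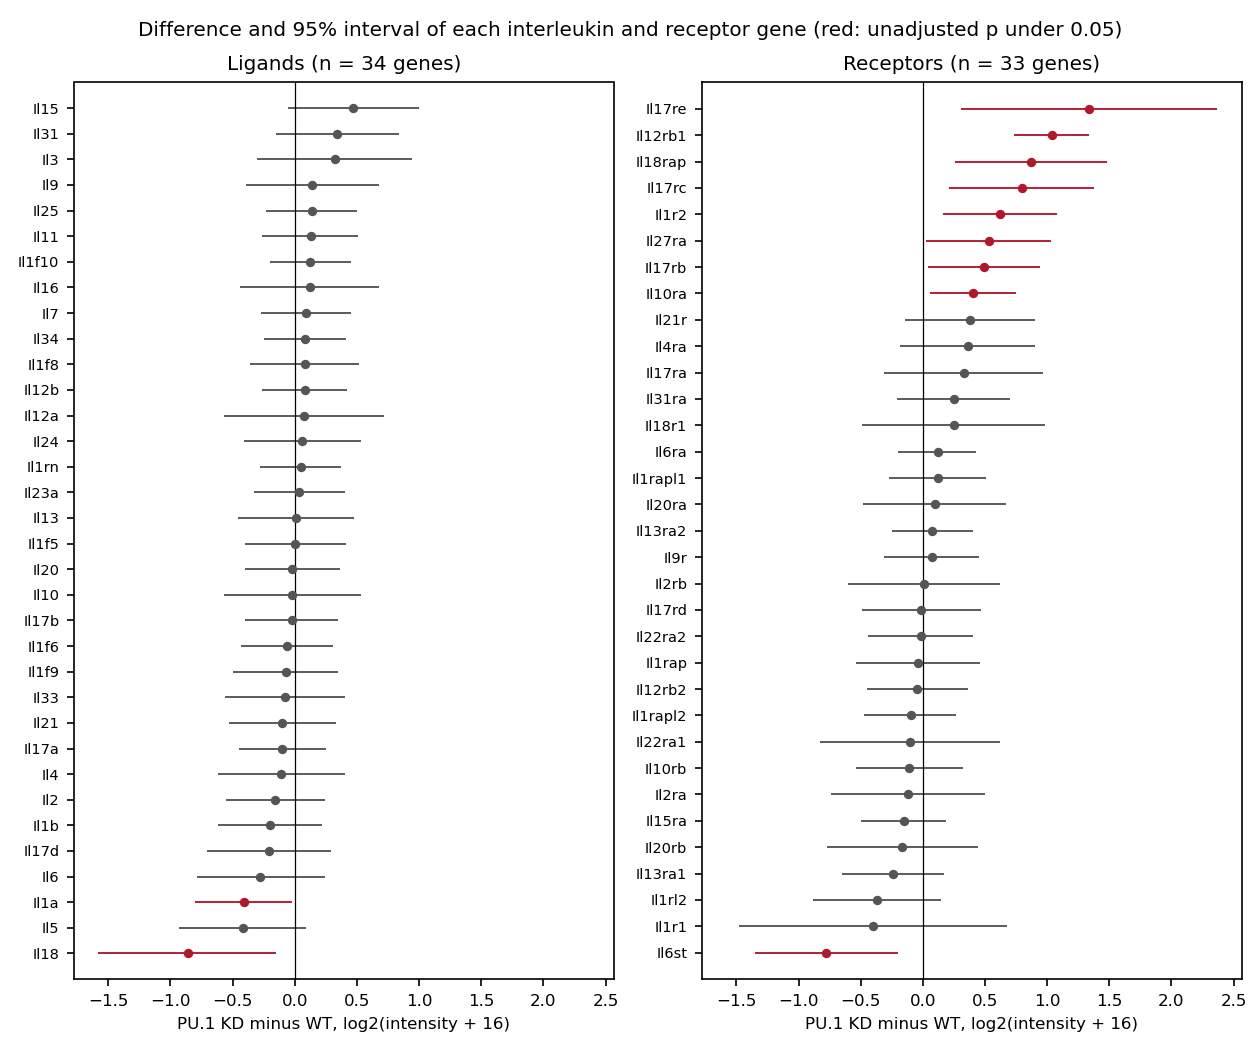
Difference between PU.1 KD and WT pools on the log2(intensity + 16) scale (x axis) for each of 34 ligands and 33 receptor chains (y axis), with its 95% interval, red where the unadjusted p is under 0.05. All 8 red points to the right of 0 are receptors, and of the 3 to the left, Il18 and Il1a are ligands and Il6st is a receptor.

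Among the receptors, the IL-17 family had the highest median difference, 0.49 over 5 chains, with 4 higher means and 3 at an unadjusted p under 0.05. IL-17 receptor chains pair with each other, and Il17ra encodes the chain that the others share. Il17re, the chain that binds IL-17C, read 7.53, 9.30 and 8.17 in WT pools and 9.43, 9.34 and 10.26 in PU.1 KD pools. WT pool 2 was nearly level with the lowest PU.1 KD pool, and the groups, apart on this scale, overlapped in the values as deposited. The difference was 1.34 (SE 0.44, adjusted p = 0.615), a fold of 2.53 on this scale, and it ran from 0.94 without WT pool 1 to 1.83 without WT pool 2 and was 0.80 with the mean over probe sets. All 3 of its probe sets had higher means in PU.1 KD pools, from 0.24 to 1.34, and 2 of them had an unadjusted p under 0.05. Il17rc, which pairs with the Il17ra chain to bind IL-17A and IL-17F, read 6.67, 7.18 and 6.49 in WT pools and 7.29, 7.42 and 8.02 in PU.1 KD pools. Its highest value was again in PU.1 KD pool 3, and its groups too were apart on this scale and overlapped as deposited. The difference was 0.80 (SE 0.25, adjusted p = 0.598), while its other, dimmer probe set gave -0.089 and the mean over both 0.35. Il17re and Il17rc lie side by side on chromosome 6 in the RefSeq table, with the lncRNA gene Gm52872 and 0 protein-coding genes between them.

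Il17rb, the chain that binds IL-25, read 7.46, 6.90 and 7.28 in WT pools and 7.69, 7.50 and 7.92 in PU.1 KD pools. WT pool 1 and PU.1 KD pool 2 were nearly level, and the groups overlapped as deposited. The difference was 0.49 (SE 0.19, adjusted p = 0.676), and as deposited 0.40, no longer at an unadjusted p under 0.05. Il17ra itself read 9.18, 10.32 and 9.71 in WT pools and 10.18, 9.88 and 10.14 in PU.1 KD pools. Here the highest level of all was in WT pool 2, the groups overlapped, and the difference was 0.33 (SE 0.28). It was 0.053 without WT pool 1 and 0.63 without WT pool 2. The ligands of these receptors gave no such values. Il17a, the T cell cytokine IL-17A, read 10.36, 10.34 and 10.60 in WT and 10.36, 10.18 and 10.45 in PU.1 KD pools. Its difference was -0.10 (SE 0.15) with overlapping groups, and Il25 differed by 0.14 (SE 0.16). The mean level of Il17a, 10.38, was the highest of the 70 genes. It rests on 1 probe set, and whether that signal comes from Il17a transcript was not tested.

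**Figure D2:**
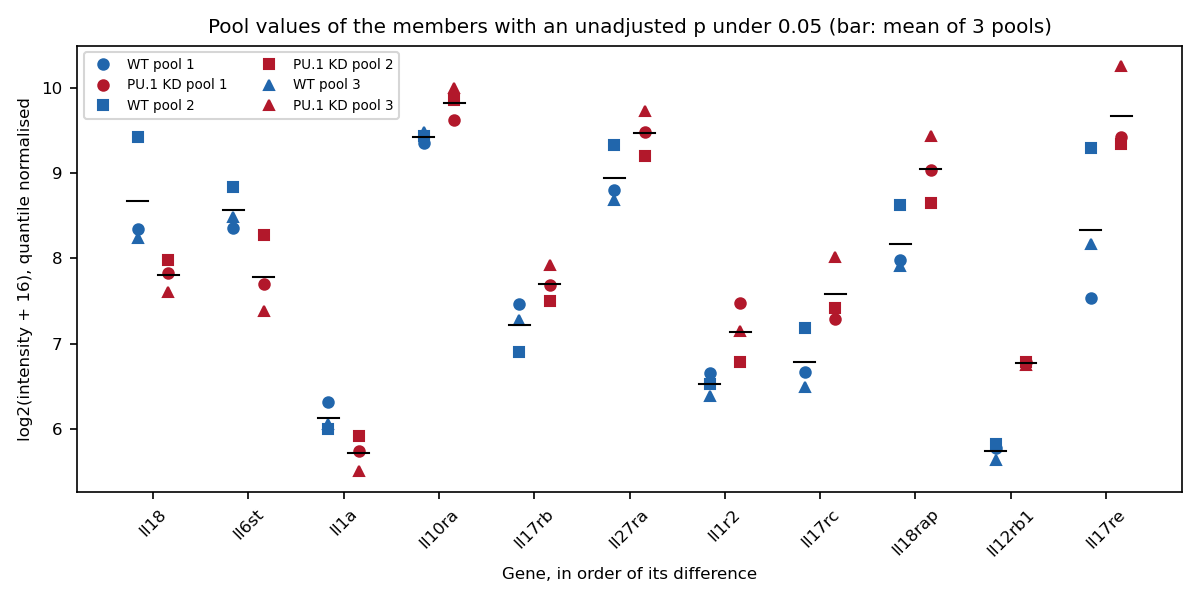
Level of each pool on the quantile-normalised log2(intensity + 16) scale (y axis) for the 11 genes with an unadjusted p under 0.05 (x axis, in order of difference), WT in blue and PU.1 KD in red, with a bar at each mean of 3 pools. On this scale groups do not overlap except for Il27ra, while 5 of the receptors overlap as deposited. Il12rb1 shows the narrowest spread, and PU.1 KD pool 3 is the outermost knockdown pool for 9 of the 11 genes.

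The stretches before the start sites of Il17re, Il17rb and Il18rap are shown. They came from genes with an unadjusted p under 0.05 in limma, higher or lower, whose printed bases held a short motif. Printed bases lie upstream of the start and outside the annotated gene. Il1a, a ligand with a lower mean, has matches too, but not within the bases so printed. The motifs searched on both strands were GAGGAA, a core that PU.1 binds, and TGANTCA, bound by AP-1, the Jun and Fos dimer named in the series' title. Sequences are from RefSeq, build GRCm38.p6, 5′ to 3′ on the gene's strand, with the matches in capitals (TTCCTC is GAGGAA on the other strand).
Il17re, chr6:113458579-113458698, plus strand: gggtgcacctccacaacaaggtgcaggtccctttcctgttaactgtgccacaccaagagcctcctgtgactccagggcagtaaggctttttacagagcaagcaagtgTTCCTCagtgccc
Il17rb, chr14:30008897-30009016, minus strand: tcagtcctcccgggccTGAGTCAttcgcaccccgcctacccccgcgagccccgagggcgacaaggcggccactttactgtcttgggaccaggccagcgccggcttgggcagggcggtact
Il18rap, chr1:40515242-40515361, plus strand: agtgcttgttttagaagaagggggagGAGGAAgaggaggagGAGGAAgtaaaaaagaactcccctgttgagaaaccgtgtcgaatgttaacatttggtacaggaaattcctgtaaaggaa
Those of Il17rb and Il18rap end at the base before the start site and that of Il17re further upstream, each 120 bases long. Windows of 300 bases, from 250 before to 50 after the start, were given for 8 of the 11 genes with an unadjusted p under 0.05. GAGGAA was in 3 of these 8 (Il17re, Il18rap and Il1a), in 20 of the 67 windows of the whole list (29.9%) and in 28.3% of all 32851 windows. TGANTCA was in 2 of the 8 (Il17rb and Il1a), in 13 of the 67 (19.4%) and in 7.81% of all windows. A match is a stretch of letters, and binding was not measured here.

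In the IL-1 and IL-18 family, 4 of 8 receptor chains had higher means and 2 of these had an unadjusted p under 0.05. Il18rap, the accessory chain that the IL-18 receptor needs to signal, read 7.98, 8.63 and 7.91 in WT pools and 9.04, 8.65 and 9.44 in PU.1 KD pools. WT pool 2 and PU.1 KD pool 2 were nearly level on this scale, and the groups overlapped as deposited. The difference was 0.87 (SE 0.26, adjusted p = 0.574), and its second probe set gave 0.49. Il18r1, the chain that binds IL-18 and the neighbour of Il18rap on chromosome 1, differed by 0.25 (SE 0.32) with overlapping groups, and this ran from 0.037 without WT pool 1 to 0.55 without PU.1 KD pool 1. The difference between the 2 neighbours was not tested.

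Il18 itself, the inflammatory ligand of that receptor, was the ligand with the lowest difference. It read 8.35, 9.42 and 8.24 in WT pools and 7.83, 7.98 and 7.61 in PU.1 KD pools. The groups did not overlap and the WT mean was drawn up by pool 2. The difference was -0.86 (SE 0.31, adjusted p = 0.655), and it was -0.49 without WT pool 2. Ligand and signalling chain of the IL-18 pathway thus had means on opposite sides of 0, neither past the adjusted threshold. Il18bp, the secreted protein that binds and neutralises IL-18, read 6.51, 6.01 and 6.22 in WT and 6.63, 7.75 and 6.37 in PU.1 KD pools. Its difference of 0.67 (SE 0.34) was 0.26 without PU.1 KD pool 2, and the groups overlapped.

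Il1r2, the IL-1 decoy receptor that binds IL-1 without signalling, read 6.66, 6.53 and 6.38 in WT pools and 7.48, 6.79 and 7.15 in PU.1 KD pools. All PU.1 KD pools were above all WT pools, with a difference of 0.62 (SE 0.20, adjusted p = 0.608). Il1r1, the chain that does signal, read 6.29, 7.92 and 6.07 in WT and 6.62, 6.56 and 5.89 in PU.1 KD pools, with WT pool 2 far above the others. The difference of -0.40 (SE 0.47) became 0.17 without that pool. Il1rap, the accessory chain shared by receptors of the IL-1 family, had overlapping groups and a difference of -0.039 (SE 0.21), with its 5 probe sets spread from -0.41 to 0.40. Il1rl2, the receptor of the IL-36 ligands, differed by -0.37 (SE 0.22), and by -0.15 without WT pool 3.

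Of 10 IL-1 family ligands 4 had higher (2 as deposited) and 6 lower means, and the 2 at an unadjusted p under 0.05, Il18 and Il1a, were lower. Il1a, which encodes IL-1 alpha, read 6.32, 6.0 and 6.06 in WT pools and 5.74, 5.92 and 5.50 in PU.1 KD pools. The groups did not overlap, WT pool 2 and PU.1 KD pool 2 lay close together, and the whole gene was under the median level of all probe sets. The difference was -0.41 (SE 0.17, adjusted p = 0.687). Il1b, the other IL-1 agonist, differed by -0.20 (SE 0.18) with overlapping groups. Il1rn, the secreted antagonist of the IL-1 receptor, differed by 0.048 (SE 0.14), and the IL-36 ligands Il1f6 and Il1f8 by -0.063 (SE 0.16) and 0.08 (SE 0.19). The signs of these last 3 turned under at least 1 alternative setting.

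The IL-6 and IL-12 family held both the receptor with the smallest p and the only receptor lower at an unadjusted p under 0.05. Il12rb1, the chain shared by the receptors of IL-12 and IL-23, read 5.77, 5.82 and 5.63 in WT pools and 6.79, 6.78 and 6.75 in PU.1 KD pools. The 2 groups were far apart relative to their spread, with means of 5.74 ± 0.10 and 6.77 ± 0.02 (SD, n = 3). The difference was 1.04 (SE 0.13, 95% interval 0.73 to 1.34), a fold of 2.05, with a limma p of 5.9e-05 that became 0.203 after adjustment. It ran from 0.98 to 1.07 when each pool in turn was left out, but its size depends on the pseudocount, with 1.30 at a pseudocount of 1 and 0.63 at 64. The filters at the 40th and 60th percentile left the gene out. Mean intensities were 38.4 in WT and 90.6 in PU.1 KD pools, the WT level is below the median of all probe sets, and the gene has 1 probe set, so no other measurement of it was at hand. Il12rb2, its partner chain in the IL-12 receptor, differed by -0.045 (SE 0.18) with overlapping groups, and Il23r, its partner in the IL-23 receptor, was not analysed here.

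Il27ra, the chain specific to IL-27, read 8.80, 9.33 and 8.69 in WT pools and 9.48, 9.20 and 9.73 in PU.1 KD pools. The difference was 0.53 (SE 0.22, adjusted p = 0.689), and PU.1 KD pool 2 lay below WT pool 2. Il6st encodes gp130, the signalling chain shared by IL-6, IL-11, IL-27 and related cytokines. It read 8.36, 8.84 and 8.49 in WT pools and 7.70, 8.28 and 7.38 in PU.1 KD pools. All WT pools were above all PU.1 KD pools, with a difference of -0.78 (SE 0.25, adjusted p = 0.604). Only 2 of its 4 probe sets had lower means, and their differences ran from -0.78 to 0.074, with -0.21 for the mean over probe sets. Il31ra, the IL-31 receptor chain that lies beside Il6st on chromosome 13, differed by 0.25 (SE 0.20), and the sign turned when its probe sets were averaged. Of the 6 ligands of this family 5 had higher means (3 as deposited), Il6 did not (-0.28, SE 0.22), and 0 had an unadjusted p under 0.05. Il11, a gp130 ligand, differed by 0.13 (SE 0.17) and Il12a, the p35 subunit of IL-12 and IL-35, by 0.074 (SE 0.28).

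**Figure D3:**
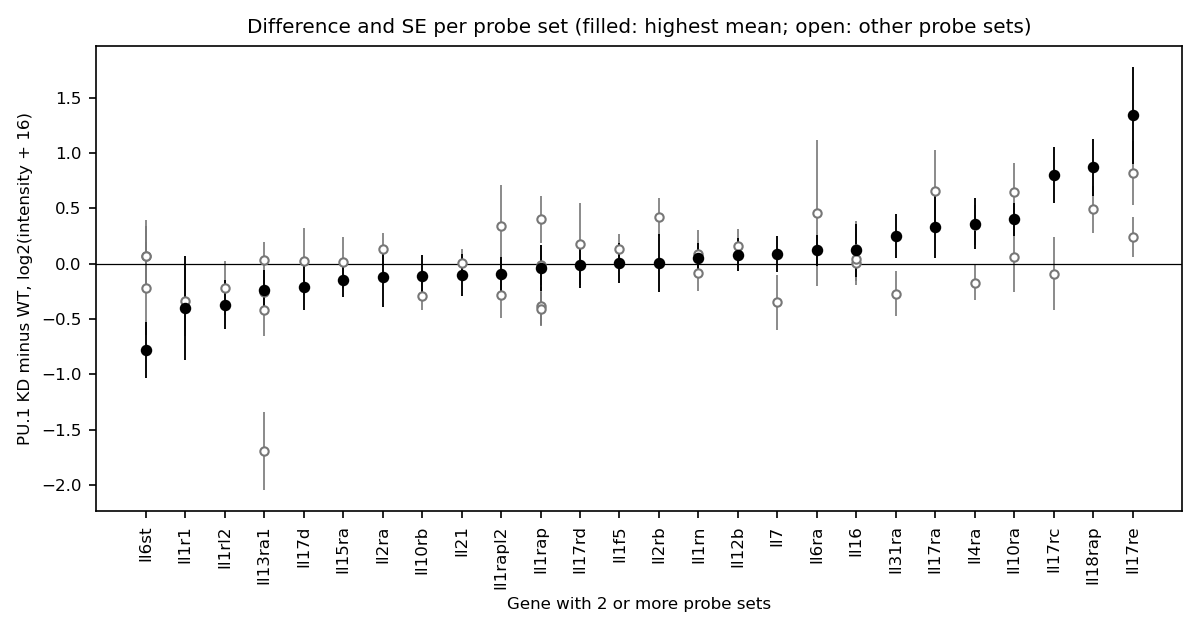
Difference with its SE on the log2(intensity + 16) scale (y axis) for every probe set of the genes with more than 1 (x axis), filled for the probe set with the highest mean and open for the others. All probe sets of Il17re, Il18rap and Il10ra lie above 0, those of Il6st and Il17rc lie on both sides, and 1 dimmer probe set of Il13ra1 lies at -1.69.

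In the IL-10 family, Il10ra, the IL-10 binding chain, was the 1 receptor of 6 with an unadjusted p under 0.05. It read 9.35, 9.44 and 9.48 in WT pools and 9.62, 9.86 and 10.00 in PU.1 KD pools. The lowest PU.1 KD pool was above the WT pools on this scale and below 2 of them as deposited. The difference was 0.40 (SE 0.15, adjusted p = 0.667), and as deposited 0.33, no longer at an unadjusted p under 0.05. All 3 of its probe sets had higher means, from 0.061 to 0.65. Il10rb, the chain that the IL-10 receptor shares with the receptors of IL-22 and other cytokines, read 9.93, 10.21 and 9.59 in WT and 9.74, 9.95 and 9.72 in PU.1 KD pools. It differed by -0.11 (SE 0.19), and this sign turned when 1 pool was left out. Il22ra2, the soluble receptor that neutralises IL-22, differed by -0.017 (SE 0.18).

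Of the 8 receptors of the IL-2 and IL-4 family 5 had higher means (4 as deposited) and 0 had an unadjusted p under 0.05. Il4ra, the chain that binds IL-4 and IL-13, read 8.04, 8.63 and 7.95 in WT and 8.30, 8.50 and 8.90 in PU.1 KD pools. The groups overlapped, with a difference of 0.36 (SE 0.23) that ran from 0.20 without PU.1 KD pool 3 to 0.57 without WT pool 2, and 2 of its 3 probe sets had higher means. Il21r, the IL-21 receptor, differed by 0.38 (SE 0.23) and by 0.17 without WT pool 1. Il15ra, which binds IL-15, differed by -0.15 (SE 0.15) and Il2rb, shared by the IL-2 and IL-15 receptors, by 0.009 (SE 0.26). A dimmer probe set of Il2rb gave 0.42 (SE 0.17, adjusted p = 0.676 in limma), with groups that did not overlap on this scale. The mean over both Il2rb probe sets gave 0.21. Il13ra1, a chain of the IL-13 receptor, differed by -0.24 (SE 0.18), and it is named after its values were seen because 1 of its 5 probe sets stood apart. That probe set read 6.80, 5.93 and 5.50 in WT and 4.21, 4.86 and 4.09 in PU.1 KD pools, a difference of -1.69 (SE 0.35, adjusted p = 0.445) with the PU.1 KD pools near the floor of the scale. The remaining 4 ran from -0.42 to 0.032, with 3 of them lower, and the mean over all 5 gave -0.52. Il2rg, the chain common to this family, was not analysed here.

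Among the ligands of this family, Il15, which sustains NK and memory T cells, had the highest difference of any ligand. It read 7.73, 8.44 and 7.68 in WT and 8.43, 8.23 and 8.60 in PU.1 KD pools. WT pool 2 lay within the range of the PU.1 KD pools, and the difference was 0.47 (SE 0.23, adjusted p = 0.734), or 0.72 without WT pool 2. Il7, needed for lymphocyte development, differed by 0.087 (SE 0.16), Il2, the T cell growth factor, by -0.16 (SE 0.17) and Il13, a cytokine of type 2 immunity, by 0.012 (SE 0.20). Il16, a chemoattractant of CD4+ cells, read 9.59, 10.17 and 9.66 in WT and 10.32, 9.55 and 9.92 in PU.1 KD pools, a difference of 0.12 (SE 0.24) with overlapping groups. All 4 of its probe sets had means slightly higher, up to 0.13. Il4i1, an enzyme that breaks down phenylalanine, read 9.23, 6.43 and 9.60 in WT and 9.42, 8.10 and 9.38 in PU.1 KD pools, so that pool 2 was the lowest of each group. Its difference of 0.54 (SE 0.79) was smaller than its error.

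Of the 19 ligands and 13 receptors without an account of their own under the naming rule, 0 had an unadjusted p under 0.05. Their differences ran from -0.42 to 0.34 for the ligands and from -0.40 to 0.12 for the receptors. The outer ligands were Il5, the eosinophil growth factor, at -0.42 (SE 0.22) and Il31 at 0.34 (SE 0.21). Il31 read 4.75, 4.68 and 4.60 in WT and 5.49, 4.78 and 4.78 in PU.1 KD pools. It was the 1 ligand whose PU.1 KD pools were all above the WT pools on this scale, at levels far under the median of all probe sets. As deposited its groups overlapped, and without PU.1 KD pool 1 the difference was 0.10.

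Pools contributed unequally. PU.1 KD pool 3, with the lowest Spi1 level, was the outermost knockdown pool in 9 of the 11 genes with an unadjusted p under 0.05 (81.8%), against 41.4% of the 1387 such genes over the whole table. WT pool 2 was the wildtype pool nearest the knockdown side in 6 of the 11 (54.5%), against 42.1%. The same pools were at the ends of some marker sums. The stem cell sum was 5480, 10055 and 5845 in WT pools and 5258, 5457 and 7111 in PU.1 KD pools. It was thus highest in WT pool 2 and in PU.1 KD pool 3 within their groups. The mast cell and basophil sum was highest in PU.1 KD pool 3, at 3776, and lowest in WT pool 2, at 547. The T and NK cell sum was 665, 790 and 893 in PU.1 KD pools and 691 to 740 in WT pools, with 6 of 7 markers higher and 0 at an unadjusted p under 0.05. The neutrophil sum was lowest in WT pool 2, at 16562, against 32790 and 42980 in the other WT pools and 34851 to 43507 in PU.1 KD pools, with 5 of 7 markers higher, 2 at that p. Of 5 B cell markers 4 had lower means, 2 at that p, with sums of 950 to 1658 in WT and 405 to 823 in PU.1 KD pools. All 5 megakaryocyte markers had lower means, 2 (Vwf and Gp9) at that p, with sums of 5922 to 12126 in WT and 2349 to 6835 in PU.1 KD pools. All 5 monocyte and macrophage markers had lower means as well, 1 (Cd14) at that p, with sums of 1926 to 3075 and 1965 to 2426. The part of these cells in the interleukin values was not tested.

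**Figure D4:**
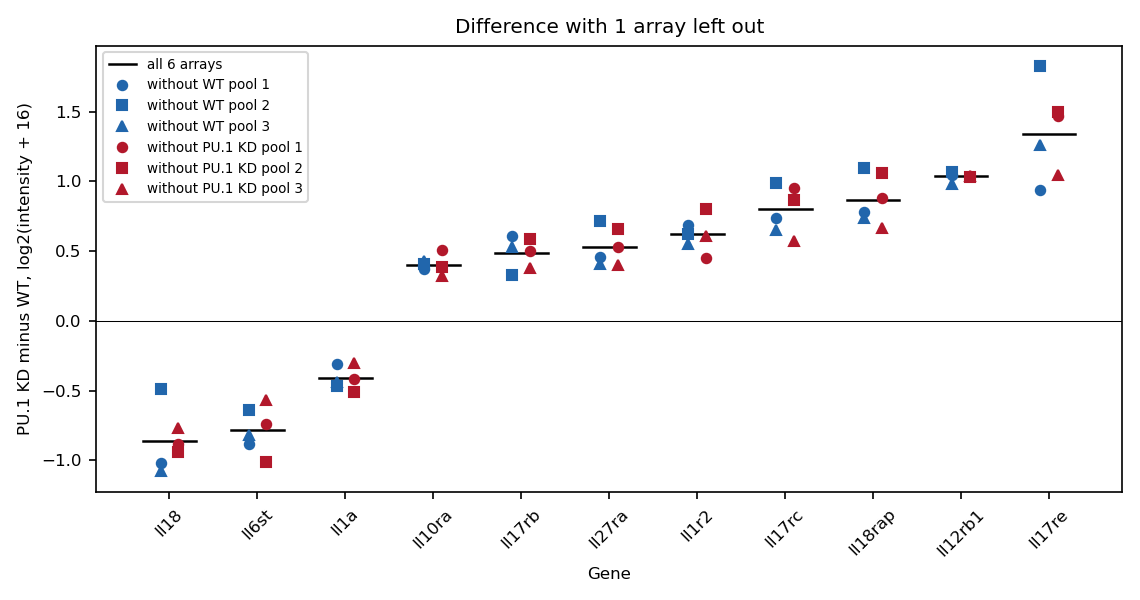
Difference between PU.1 KD and WT on the log2(intensity + 16) scale (y axis) for the same 11 genes (x axis), with all 6 arrays (bar) and with each array left out in turn (symbols). No symbol crosses 0, which was largely fixed in advance, as these genes were picked by their p in the same arrays. Where groups do not overlap, as in all but Il27ra, leaving out 1 pool can hardly turn the sign. Il12rb1 moves least, and Il17re and Il18 move most, the former between 0.94 and 1.83.

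Partner and signalling genes were taken from a list of 36, of which 34 were measured. Means were higher for 16 and lower for 18, the median difference was -0.0703 (14 higher and a median of -0.13 as deposited), and 0 passed 0.05 after adjustment in limma. At an unadjusted p under 0.05, 3 were higher (8.82%) and 6 lower (17.6%), beside the shares of all genes given above. Socs3, an inhibitor of signalling through gp130 that STAT3 induces, read 7.23, 7.22 and 5.83 in WT pools and 8.46, 8.0 and 8.91 in PU.1 KD pools. The groups did not overlap, and the difference was 1.70 (SE 0.40, adjusted p = 0.497), the smallest adjusted p of these genes. Pycard, the inflammasome adaptor ASC that leads to maturation of IL-1 beta and IL-18, differed by 0.58 (SE 0.16, adjusted p = 0.545) with groups that did not overlap, and by 0.26 with the mean over its probe sets. Csf2rb, the signalling chain shared by the receptors of IL-3, IL-5 and GM-CSF, read 9.75, 9.20 and 9.34 in WT pools and 8.56, 9.09 and 8.46 in PU.1 KD pools. All WT pools were above all PU.1 KD pools, with a difference of -0.72 (SE 0.22, adjusted p = 0.579). Csf2rb2, the mouse chain specific to IL-3 and a close copy of Csf2rb, differed by -0.84 (SE 0.27), and the 2 copies may share signal on their probes.

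The other partner genes at an unadjusted p under 0.05 were named after their values were seen. Ebi3, the subunit shared by IL-27 and IL-35, read 9.55, 10.17 and 10.01 in WT pools and 8.86, 8.17 and 4.09 in PU.1 KD pools. The last value is the floor of the scale, so the difference of -2.87 (SE 1.08, adjusted p = 0.672) leans on it, and without that pool it was -1.39. Lower means were also found for Socs2, another signalling inhibitor, at -0.81 (SE 0.28; -0.29 with the mean over its probe sets and -0.50 without PU.1 KD pool 3), for the IL-1 receptor kinase Irak1 at -0.43 (SE 0.15) and for the cytokine Tslp at -0.46 (SE 0.17). Osm, a gp130 cytokine of the IL-6 family, had a higher mean, by 0.39 (SE 0.15). The eosinophil and B cell marker sums given above, whose WT and PU.1 KD ranges did not overlap, went the same way as Csf2rb and Csf2rb2. Megakaryocyte and monocyte and macrophage markers had lower means too, while most mast cell and basophil, neutrophil, and T and NK cell markers had higher means. The part of any of these cells in the values of Csf2rb and Csf2rb2 was not tested.

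**Figure D5:**
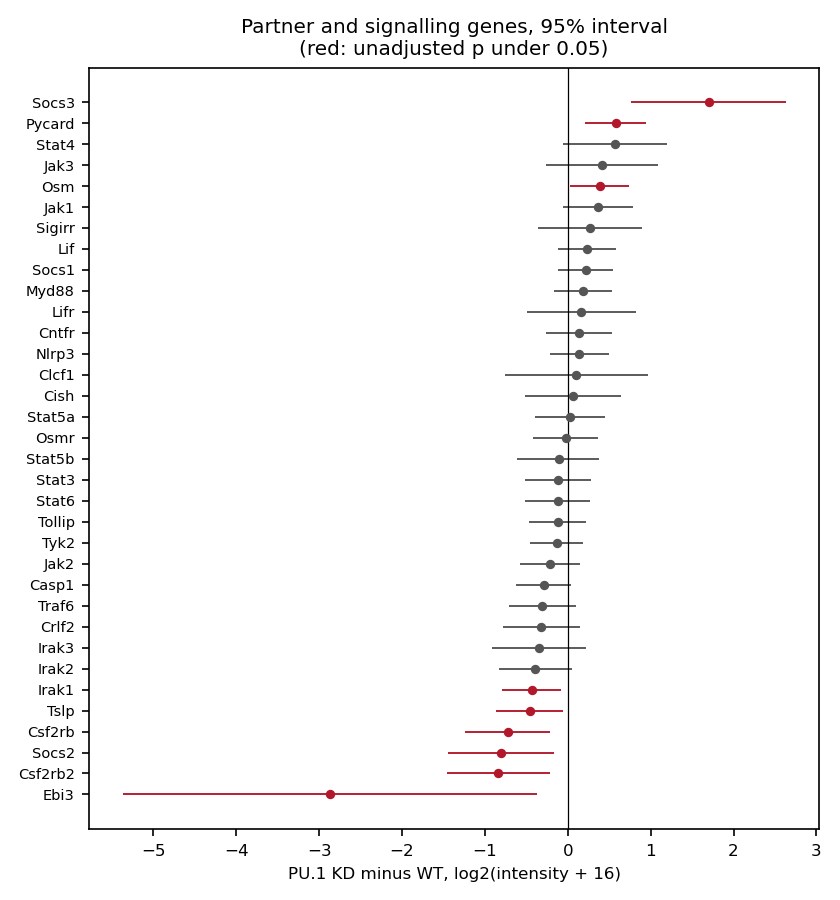
Difference between PU.1 KD and WT pools on the log2(intensity + 16) scale (x axis) with its 95% interval for the 34 measured partner and signalling genes (y axis), red where the unadjusted p is under 0.05. Socs3, Pycard and Osm are red on the right and 6 genes on the left, among them Ebi3 with the widest interval.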

How the data were processed

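RNA of 3 WT and 3 PU.1 KD pools of sorted HSC was measured on 1-colour arrays. The deposited table holds the authors' processed intensity per probe set on a linear scale, with array medians of 81.4 to 91.5 and 264 to 409 values below 0 per array. The sources used here do not name its software or scaling. A floor of 1 was applied before taking log2(intensity + 16), which understates folds of dim probe sets. Medians on that scale ran from 6.605 to 6.748, and arrays were quantile normalised. The limma package (3.58.1, under R 4.3.3) fitted all 44991 probe sets by lmFit and eBayes, and two-sided p-values were adjusted by Benjamini-Hochberg across the whole table. The number of arrays limits the precision. The method was also run on simulated data, and the share of planted changes that it recovered is not given here. Figures were drawn with matplotlib 3.10.9 in Python 3.11.15.

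Names came from the platform annotation, in which 34921 probe sets had 1 symbol, 930 several and 9140 none, and all 70 genes matched RefSeq IDs. A further 3 interleukin probe sets with several symbols were not named. Genes and lists were chosen with earlier results of these data known. Named genes were members above the median of all probe sets, members with an unadjusted p under 0.05, shared subunits, and the 2 partner genes of smallest p per direction. Il18bp, Il1r1, Il13ra1, Il5, Il6, Il31, Ebi3, Socs2, Irak1, Tslp and Osm were named after their values were seen. Il12rb2, also outside the rule, was given as the partner of Il12rb1. Same-numbered pools had correlations of deviations of 0.178, 0.061 and -0.039, and pools of different number had -0.198 to 0.154. The numbers were not taken as pairs, and 3 pools per group are too few for these values to settle it. Alternatives covered normalisation, pseudocount, filter, probe set choice, variance model, a replicate block and each pool left out.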

Additional observations from a re-analysis of the deposited data

How the results depend on the processing

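No interleukin or receptor gene passed the adjusted threshold under any of the 19 alternatives. Over all probe sets 0 to 2 passed with 1 pool left out, 2 of them without WT pool 2. Of 52 genes followed, 38 kept the sign of their difference throughout. The 8 receptors higher at an unadjusted p under 0.05 were 2 to 8 with 1 pool left out, 5 under the 60th percentile filter, 3 in an ordinary linear model and 5 with the values as deposited, while the 1 lower receptor became 0 in the ordinary model. The 2 ligands past that p were 0 (without PU.1 KD pool 1) to 5 (without WT pool 2) with 1 pool left out, 0 in the ordinary model, and 1 under the 40th and the 60th percentile filters, centring on medians, a pseudocount of 64 and the replicate block. With the replicate block the higher receptors were 7. Ligands with higher means, 18 of 34, were 11 under the 40th and 7 under the 60th percentile filter, which leave fewer genes, and 11 with the values as deposited. Receptors with higher means, 19 of 33, were 8 of the 13 left by the 60th percentile filter. The ligand median was -0.0035 with the mean over probe sets, -0.061 as deposited and -0.023 to 0.09 with 1 pool left out. As deposited, the median over all probe sets was -0.048. The receptor median was 0.25 and 0.36 under the 40th and 60th percentile filters and 0.047 to 0.13 with 1 pool left out.

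Signs that turned with the values as deposited were those of Il12a (-0.02), Il13 (-0.066), Il1rn (-0.04), Il2rb (-0.059) and Il7 (-0.0047). Array weights turned Il13 (-0.10), Il2rb (-0.17) and Il4i1 (-0.018), a pseudocount of 64 turned Il2rb (-0.002), and the mean over probe sets turned Il31ra (-0.009) and Il7 (-0.13). With 1 pool left out, the range was -0.27 to 0.042 for Il10rb, -0.18 to 0.28 for Il12a, -0.16 to 0.18 for Il13, -0.071 to 0.31 for Il16, -0.15 to 0.041 for Il1f6, -0.031 to 0.23 for Il1f8 and -0.23 to 0.095 for Il1rap. It was -0.14 to 0.093 for Il22ra2, -0.27 to 0.16 for Il2rb, -0.45 to 1.14 for Il4i1, -0.02 to 0.19 for Il7 and -0.75 to 0.17 for Il1r1. A pseudocount of 64 made the difference -0.23 for Il1a, -0.23 for Il5 and -0.27 for Tslp, and leaving out PU.1 KD pool 2 made it -0.26 for Il5. The cause was not tested for these changes. Signal close to the floor limits the dim genes, Il12rb1 in WT pools among them.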
